A study of Mus musculus with 12 samples.

Results

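Collagens are the fibre-, network- and filament-forming proteins of the extracellular matrix, and fibroblasts are their main source in most connective tissue. The collagen genes of mouse embryonic fibroblasts were examined in 12 RNA-seq libraries. Members were the protein-coding genes named Col, a number, a and a number: 44 of the 23186 genes listed in either of 2 count tables, of which 43 were in both. They comprised 11 fibrillar collagens, 6 basement membrane collagens (the type IV chains) and 27 others.

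The fibroblasts came from embryos at day 13.5 to 14.5 and were homozygous for an inducible allele of Nrf2 (LSL-Nrf2D29H) or of Keap1 (CA-Keap1R554Q). NRF2 (gene Nfe2l2) is a transcription factor that turns on antioxidant genes, and KEAP1 marks it for degradation. Each culture received adenovirus at a multiplicity of 500 in medium with 10% serum, and RNA was taken 4 days later. Adenoviral Cre gave the groups Nrf2 D29H and Keap1 R554Q, and empty adenovirus gave the group labelled Nrf2 knockout and the Keap1 wild type group, with 3 libraries in each of the 4 groups. No group joined wild-type cells to Cre virus, so Cre and the mutation cannot be told apart. The baselines were also unlike, a labelled knockout for D29H and wild type for R554Q. If the labelled knockout lacked NRF2 function, its return and the mutation cannot be told apart in D29H. All 4 groups carried adenovirus and an engineered allele. The labels do not say whether replicates were separate cultures or embryos, so p-values measure the spread between these libraries.

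Each library held 14963004 to 23818477 counted reads. Nfe2l2 stood at 46.5, 40.2 and 41.2 CPM (counts scaled per 1e+06 reads with TMM factors) in the labelled knockout and at 49.6, 57.1 and 52.5 CPM in D29H, so reads of the gene were present in the labelled knockout. Its log2 fold change was 0.31 (SE 0.10, edgeR quasi-likelihood test, adjusted p = 0.0713). Gene-level counts do not show the state of either allele. The summed level of 8 fibroblast markers was 8740 to 11500 CPM in all 12 libraries. Most of it was Vim (3150 to 4570 CPM) and Fn1 (4290 to 6090 CPM), with Dcn, Lum and Dpt at or below 26.5 CPM. The 4 smooth muscle markers summed to 8930 to 17000 CPM. The 6 endothelial markers summed to 15.2 to 23.8 CPM, most of it Kdr (13.9 to 22.1 CPM), with Pecam1 and Cdh5 at or below 0.275 CPM. The 6 epithelial markers summed to 2.2 to 7.96 CPM, most of it Krt18 (1.44 to 5.36 CPM), with Epcam and Cdh1 at or below 0.461 CPM.

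A collagen molecule is a triple helix of 3 alpha chains. The chains are hydroxylated and folded in the endoplasmic reticulum, trimmed outside the cell and cross-linked by lysyl oxidases. Fibrillar collagens build the cable-like fibrils of skin, tendon and cartilage. Type IV collagen builds the sheet under epithelia and around vessels. The remaining types coat fibrils, anchor them, form beaded filaments or short-chain networks, or span the cell membrane.

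Promoters of 3 genes are shown because these genes carried the main results: Col8a1 was lower in both Cre comparisons, Col7a1 had the lowest adjusted p of the collagens that rose with D29H, and Col3a1 differed most among the fibrillar collagens between the cultures. The sequences are the 250 bases before the transcription start in RefSeq (GRCm38.p6), 5′ to 3′ on the gene's strand. Capitals mark matches on either strand to the antioxidant response element core TGACNNNGC, which NRF2 binds with a small MAF protein, to the GC box GGGCGG and to the TATA box TATAAA. Col8a1 lies on the minus strand (chr16:57754738-57754987), Col7a1 on the plus strand (chr9:108953336-108953585) and Col3a1 on the plus strand (chr1:45311288-45311537).
Col8a1: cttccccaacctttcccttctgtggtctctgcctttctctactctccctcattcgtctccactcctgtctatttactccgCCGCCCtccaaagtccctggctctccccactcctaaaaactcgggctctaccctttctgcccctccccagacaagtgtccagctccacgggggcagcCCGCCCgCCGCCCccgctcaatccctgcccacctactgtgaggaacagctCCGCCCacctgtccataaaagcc
Col7a1: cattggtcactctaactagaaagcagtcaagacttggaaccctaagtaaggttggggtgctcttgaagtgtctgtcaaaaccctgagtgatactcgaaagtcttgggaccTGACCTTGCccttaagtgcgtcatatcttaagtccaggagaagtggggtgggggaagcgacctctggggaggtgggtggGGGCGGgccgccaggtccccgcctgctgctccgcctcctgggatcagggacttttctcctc
Col3a1: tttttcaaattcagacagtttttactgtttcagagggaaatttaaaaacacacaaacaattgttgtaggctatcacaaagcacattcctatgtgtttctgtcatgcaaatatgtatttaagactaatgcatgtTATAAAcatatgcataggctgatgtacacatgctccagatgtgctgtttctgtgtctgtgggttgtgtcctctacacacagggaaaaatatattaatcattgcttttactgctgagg
Col7a1 held TGACCTTGC, starting 140 bases before the transcription start, and a GC box. Col8a1 held 4 GC boxes and no TGACNNNGC in this window. Col3a1 held 1 TATA box, starting 117 bases before the start. RefSeq windows were found for 35 collagens. The antioxidant response element core was in 5 of them (14.3%), against 1458 of 12197 promoters of the same length, and the others beside Col7a1 were Col24a1, Col4a2, Col6a5 and Col9a2. The AP-1 site TGANTCA, whose letters can coincide with the first letters of that core, was in 1 of 35 (Col6a1, 2.86%) against 4.98%. GC boxes were in 60.0% of the collagens and 55.0% of all promoters, and TATA boxes in 14.3% and 7.63%. A match of letters does not show that a protein bound there.

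In FPKM, the authors' read counts corrected for gene length and library total, the chains of type I collagen came first. Col1a1 had a mean of 1590 ± 25.5 FPKM (SD, n = 3) in D29H, 1760 ± 36.9 in the labelled knockout, 1240 ± 69.0 in R554Q and 1210 ± 132 in the wild-type group. Col1a2, its partner chain, had 613 ± 36.1, 704 ± 69.7, 432 ± 30.8 and 447 ± 34.5 FPKM in the same order. Together they made up 57.2% to 63.5% of the summed collagen FPKM of a library. The next levels over all libraries were 229 FPKM for Col5a1 and 226 FPKM for Col5a2 of type V collagen, which regulates fibril width. These neighbours did not differ beyond their spread.

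Col3a1, the type III chain of elastic tissues, followed at 134 FPKM over all libraries. Of the type IV chains, Col4a1 had 126, Col4a2 had 109 and Col4a5 had 15.5 FPKM. The most abundant collagens of the other types were Col6a1 at 110 FPKM, Col12a1, a fibril-coating collagen, at 77.0 FPKM and Col6a2 at 74.9 FPKM. At the low end, Col13a1, Col22a1, Col4a3, Col4a4, Col6a4, Col6a5, Col6a6, Col9a1 and Col9a2 did not pass the filter on low counts in either Cre comparison. Col17a1 passed in the Nrf2 comparison alone, and Col26a1 was listed in the Keap1 table alone. The filter left 34 of 43 listed collagens in the Nrf2 comparison and 33 of 44 in the Keap1 comparison, and the largest count below it was 14 and 13 reads.

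FPKM ratios were taken for chains that assemble together. The ratio of Col1a1 to Col1a2 was 2.26 to 2.99 over the 12 libraries, that of Col4a1 to Col4a2 was 1.06 to 1.23, and that of Col5a1 to Col5a2 was 0.918 to 1.18. Within each pair of groups given Cre or empty virus, the libraries overlapped in all 3 ratios. The ratio of Col6a1 to Col6a2 was 1.40, 1.58 and 1.47 in D29H and 1.39, 1.35 and 1.39 in the labelled knockout, which did not overlap. The ratio of Col3a1 to Col1a1, which form separate molecules within mixed fibrils, was 0.107 ± 0.00811 in D29H and 0.108 ± 0.00736 in the labelled knockout (n = 3 each). It was lower, at 0.0688 ± 0.00384 and 0.0748 ± 0.00614, in R554Q and wild type, and no library of either allele reached those of the other.

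The first comparison sets Nrf2 D29H, with Cre virus, against the labelled knockout, with empty virus. Most collagens did not pass the test. Of 34 tested, 3 were higher in D29H (Col11a2, Col7a1 and Col27a1) and 1 was lower (Col8a1), where 4.75% of all 14370 genes tested were called, 3.47% higher and 1.28% lower. The median log2 fold change was -0.09 over the 11 fibrillar collagens, 0.02 over the 4 tested type IV chains and 0.03 over the 19 other collagens, beside 0.00 over all genes. The groups did not overlap, by library, for 4 collagens that were higher and 6 that were lower in D29H, against 12.7% and 12.9% of all genes.

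Col8a1 encodes a short-chain collagen of vessel walls and of the cornea. It had 293, 228 and 261 CPM in D29H and 337, 384 and 437 CPM in the labelled knockout. Every D29H library was below every labelled-knockout library. The log2 fold change was -0.57 (SE 0.12, edgeR quasi-likelihood test, adjusted p = 0.00958).

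Col7a1 encodes type VII collagen, the anchoring fibril that ties the skin's basement membrane to the dermis. It had 195, 285 and 305 CPM in D29H and 189, 163 and 144 CPM in the labelled knockout. The groups did not overlap, although the lowest D29H library lay close to the highest labelled-knockout library. Its log2 fold change was 0.66 (SE 0.14, edgeR, adjusted p = 0.00761).

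Col27a1, a fibrillar collagen of cartilage, had 43.3, 59.8 and 64.6 CPM in D29H and 42.1, 38.0 and 33.5 CPM in the labelled knockout. These groups were also apart by a narrow margin, with a log2 fold change of 0.56 (SE 0.12, edgeR, adjusted p = 0.0123). Col11a2, a cartilage chain present here at a low level, had 5.82, 7.54 and 7.91 CPM against 5.11, 4.28 and 2.55 CPM. Its log2 fold change was 0.80 (SE 0.20, edgeR, adjusted p = 0.0209), with no overlap.

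**Figure D1:**
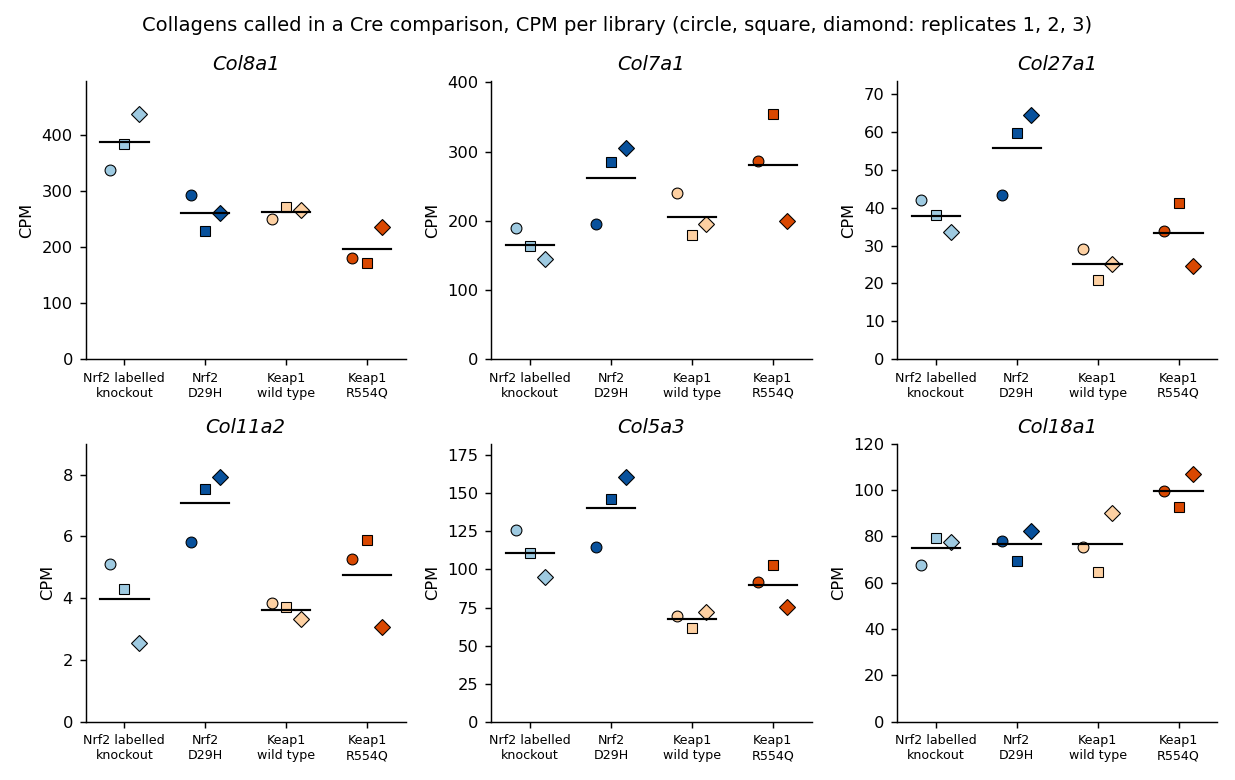
CPM of the 6 collagens called in a Cre comparison, 1 panel per gene with groups on the horizontal axis; points are libraries (circle, square and diamond for replicates 1, 2 and 3) and bars are group means. Col8a1 sits lower with Cre for both alleles, from 337 to 437 CPM down to 228 to 293 CPM for the Nrf2 allele.

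Col7a1, Col27a1 and Col11a2 shared one order of libraries, also with Col5a3 and Col16a1: replicate 3 highest in D29H, replicate 1 highest in the labelled knockout and replicate 2 highest in R554Q, with the same middle and lowest libraries. In wild type these genes had no common order: replicate 1 was highest for Col7a1, Col27a1 and Col11a2, and replicate 3 for Col5a3 and Col16a1. The order in the other groups was noticed after the values were seen and held for 5 of 35 collagens and 2.31% of all genes. The transcripts of these 5 genes had a GC content of 59.4% to 62.9%, against a median of 49.8% for genes tested. Of the 35 collagens tested 8 lay in that GC range, the others being Col2a1, Col18a1 and Col4a2, which had other orders. Across genes, a library's deviation from its group mean correlated with GC content at r = -0.082, -0.132 and 0.246 in D29H replicates 1, 2 and 3 and at 0.062, 0.186 and -0.178 in those of the labelled knockout. The values were 0.158, 0.190 and -0.301 in R554Q and 0.089, -0.357 and 0.28 in wild type, where genes are not independent. The part of GC content in the shared order was not tested. Offsets for GC content and listed gene length were fitted to deviations from the mean of all libraries in the comparison, not of the group. They therefore also take up a difference between groups that follows GC content or length. With these offsets, the log2 fold changes were 0.71 for Col11a2, 0.45 for Col7a1, 0.39 for Col27a1 and -0.55 for Col8a1. Their adjusted p ran from 0.0199 to 0.0496 (edgeR).

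All 4 calls were lost without D29H replicate 2 or without D29H replicate 3, where the log2 fold changes were 0.76 and 0.72 for Col11a2, 0.60 and 0.54 for Col7a1, 0.51 and 0.45 for Col27a1, and -0.47 and -0.56 for Col8a1 (edgeR, adjusted p from 0.0786 to 0.153). In these fits 0.646% and 0.563% of all genes were called. Without D29H replicate 1, 8 collagens were higher and 2 lower, where 8.17% and 6.83% of all genes were. Without labelled-knockout replicate 1, 4 were higher and 3 lower, against 4.1% and 2.15% of all genes. The count over all genes thus moved with the library left out, as the count of collagens did.

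Among the fibrillar collagens outside these calls, Col1a1 read 9160, 9160 and 9090 CPM in D29H and 10100, 10600 and 10200 CPM in the labelled knockout. Those libraries did not overlap, but the difference of -0.18 on the log2 scale (SE 0.14) missed the threshold (edgeR, adjusted p = 0.460). Col1a2 (-0.23, SE 0.13) and Col3a1 (-0.20, SE 0.12) likewise missed the threshold, with adjusted p of 0.294 and 0.331. Col2a1, the main collagen of cartilage, had -0.38 (SE 0.12, adjusted p = 0.0620). With the offsets it was called, at -0.45 (edgeR, adjusted p = 0.0384). Fibrillar collagens as a class took 1.79% ± 0.0667 of the reads in D29H and 1.96% ± 0.0919 in the labelled knockout (SD, n = 3), with no overlap between the libraries before rounding.

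None of the 4 tested type IV chains was called in the Nrf2 comparison. The count at an unadjusted p under 0.05 was 0 in edgeR, and DESeq2 called 0. Their log2 fold changes ran from -0.09 (Col4a5) to 0.20 (Col4a6, SE 0.20). Of the other collagens, Col20a1, a minor fibril-associated type, had the largest log2 fold change at 0.91 (SE 0.37, adjusted p = 0.148 in edgeR) with 10 to 34 reads per library. A gene without a collagen name, 9230112E08Rik, overlaps Col20a1 on the same strand with 802% of its reads in the Nrf2 table, so the count of Col20a1 is uncertain. Of the genes in 10 cell type marker lists, 1 of 3 tendon markers was lower in this comparison, where 1.28% of all genes were. No other marker was called. The part of that tendon marker in the result was not tested. In bulk RNA, fewer cells of a type and less RNA per cell cannot be told apart.

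**Figure D2:**
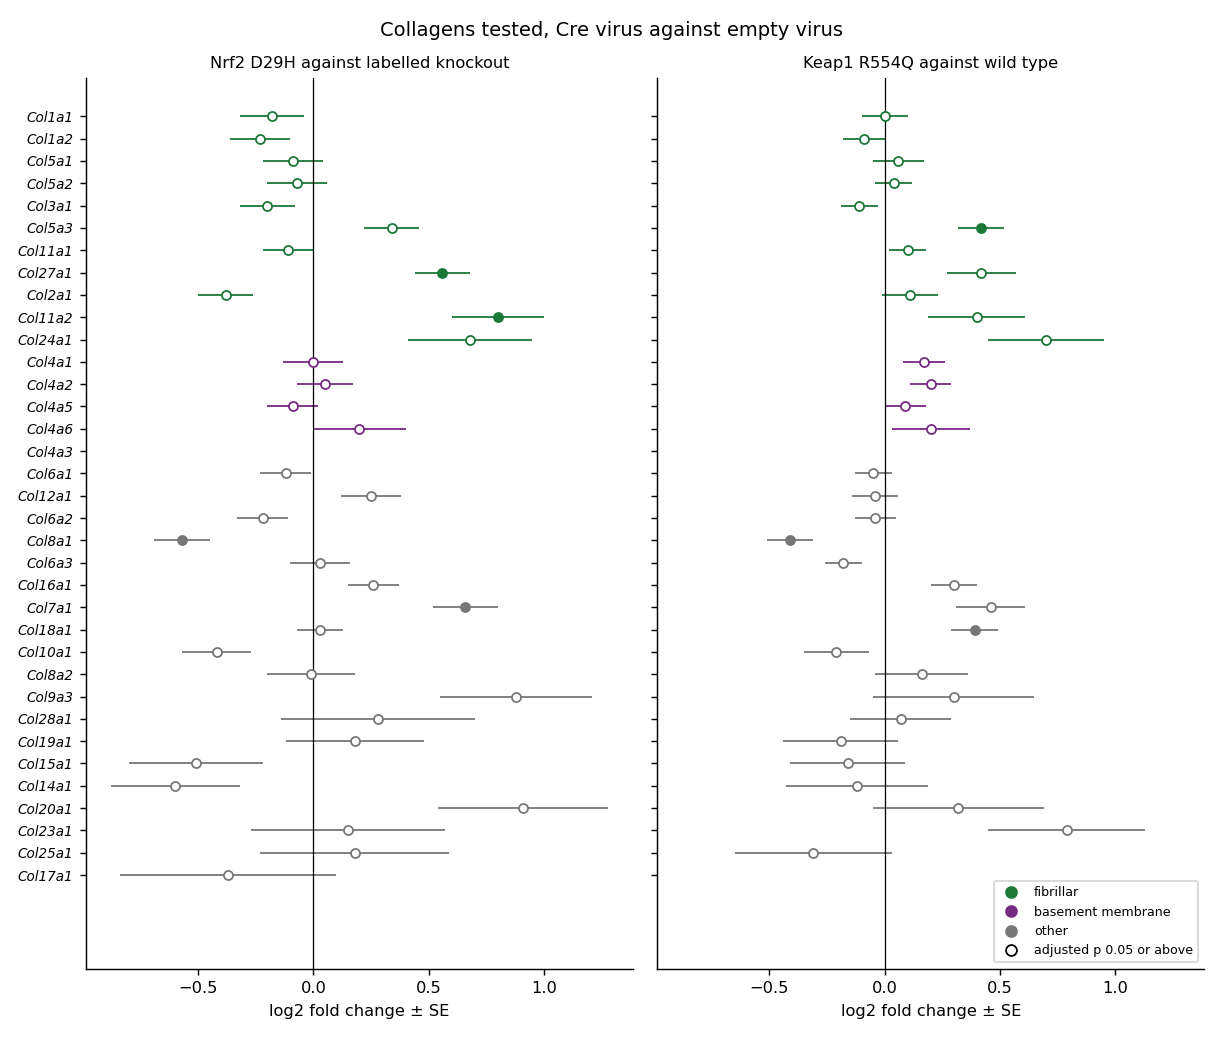
Log2 fold change with its standard error for each tested collagen, Nrf2 D29H against the labelled knockout (left) and Keap1 R554Q against wild type (right), on 1 shared scale; filled points passed an adjusted p of 0.05 and colours give the class. Filled points are 4 of 34 collagens on the left and 3 of 33 on the right, and Col8a1 is the one filled on both sides.

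The second comparison sets Keap1 R554Q against wild type. Of 33 collagens tested, 2 were higher (Col5a3 and Col18a1) and 1 was lower (Col8a1), where 6.17% of 14128 genes were called, 3.77% higher and 2.4% lower. The median log2 fold change was 0.10 over the fibrillar collagens, 0.19 over the 4 type IV chains and -0.04 over the 18 other collagens. The groups did not overlap for 3 higher and 3 lower collagens, against 13.3% and 14.2% of all genes.

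Col8a1 was again the collagen that fell. It had 180, 171 and 236 CPM in R554Q and 249, 271 and 266 CPM in wild type, with no overlap. The log2 fold change was -0.41 (SE 0.10, edgeR, adjusted p = 0.0253), and it was -0.41 with the offsets for GC content and length (adjusted p = 0.0133). The call was lost without R554Q replicate 1 (-0.36), R554Q replicate 2 (-0.33), wild-type replicate 2 (-0.39) or wild-type replicate 3 (-0.41), with adjusted p from 0.0913 to 0.149 in edgeR.

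Col5a3 encodes the third chain of type V collagen. It had 92.0, 103 and 75.3 CPM in R554Q and 69.5, 61.7 and 72.0 CPM in wild type. The highest wild-type library was just under the lowest R554Q library, and the log2 fold change was 0.42 (SE 0.10, edgeR, adjusted p = 0.0227). With the offsets it was 0.13 (adjusted p = 0.341). It was called without R554Q replicate 3 alone among the 6 fits that left out 1 library: the others gave 0.31 to 0.46 with adjusted p from 0.0582 to 0.134 (edgeR).

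Col18a1 encodes a basement membrane proteoglycan collagen whose end fragment is endostatin. It had 99.7, 92.8 and 107 CPM in R554Q and 75.3, 64.6 and 90.1 CPM in wild type, without overlap. Its log2 fold change was 0.39 (SE 0.10, edgeR, adjusted p = 0.0331), and 0.13 with the offsets (adjusted p = 0.498). The call was lost without R554Q replicate 1 (0.39), wild-type replicate 1 (0.37) or wild-type replicate 2 (0.28), with adjusted p from 0.101 to 0.201 in edgeR. Slc19a1 overlaps Col18a1 on the opposite strand, and the tables do not state whether reads were counted by strand. Its reads came to 27.9% of those of Col18a1 in the Keap1 table, and its log2 fold change was 0.07 (SE 0.09, edgeR, adjusted p = 0.682).

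**Figure D3:**
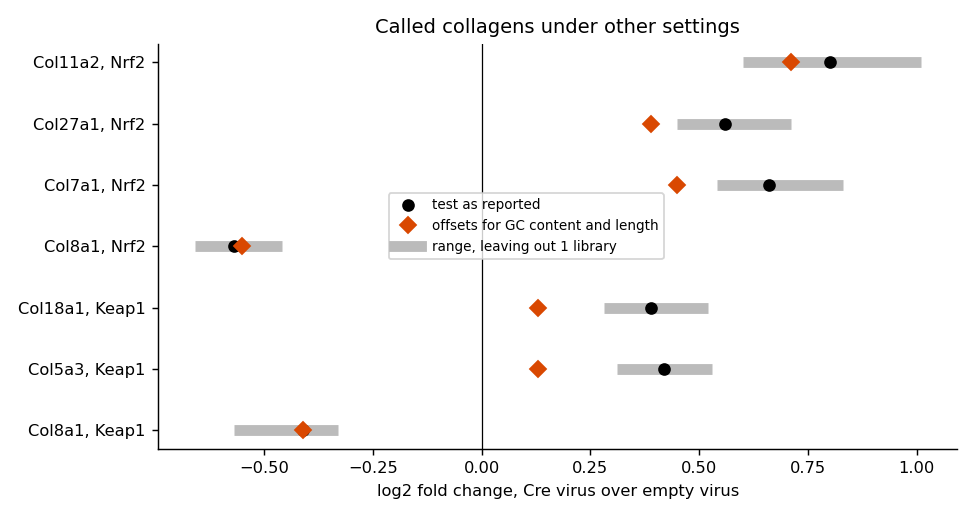
Log2 fold change of each called collagen (Cre virus over empty virus, horizontal axis) in the test as reported (black), with GC and length offsets (orange) and over the fits that leave out 1 library (grey bar). Col18a1 and Col5a3 in the Keap1 comparison move from 0.39 and 0.42 to 0.13 with the offsets, and Col8a1 stays at -0.41.

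Without R554Q replicate 3, 6 collagens were higher and 3 lower, where 10.6% and 9.33% of all genes were, against 3.77% and 2.4% with all libraries. Col7a1 then had 0.66 and Col27a1 had 0.60, against 0.46 (SE 0.15, adjusted p = 0.0744) and 0.42 (SE 0.15, adjusted p = 0.0963) with all libraries (edgeR). Other settings lowered these values. They were 0.25 and 0.23 without R554Q replicate 2, and 0.15 and 0.16 with the offsets (edgeR, adjusted p from 0.337 to 0.564). The deviation of R554Q replicate 3 from its group correlated across genes with GC content at r = -0.301 and with log gene length at 0.258. Type I collagen was near even, with log2 fold changes of 0.00 (SE 0.10) for Col1a1 and -0.09 (SE 0.09) for Col1a2. The largest values among the uncalled were 0.79 (SE 0.34) for Col23a1, a transmembrane type, and 0.70 (SE 0.25) for Col24a1, a minor fibrillar type, at adjusted p of 0.160 and 0.0922 in edgeR.

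None of the type IV chains was called in the Keap1 comparison, with 1 (Col4a2) at an unadjusted p under 0.05 and 0 called by DESeq2. Col15a1 and Col18a1 were classed with the others. If both are counted as basement membrane collagens, 1 of 6 tested was higher here, where 3.77% of all genes were, and 0 of 6 in the Nrf2 comparison. The log2 fold changes of all 4 type IV chains were above 0, from 0.09 for Col4a5 to 0.20 for Col4a2 (SE 0.09, edgeR adjusted p = 0.169) and Col4a6. Across the alternatives Col4a1 ran from -0.04 to 0.23, Col4a2 from -0.06 to 0.28, Col4a5 from -0.03 to 0.15 and Col4a6 from 0.08 to 0.28. Type IV chains took 0.182%, 0.204% and 0.197% of the reads in R554Q and 0.160%, 0.161% and 0.180% in wild type. The 2 groups were apart by a small margin. Col4a1 and Col4a2 share a start region on opposite strands, so their counts are uncertain where reads fall on both. Markers that were lower in this comparison were 2 of 4 smooth muscle, 1 of 7 macrophage and 1 of 3 tendon genes, where 2.4% of all genes were. Higher was 1 of 8 fibroblast genes, where 3.77% of all genes were. Their part in these results was not tested.

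Whether the log2 fold changes with Cre differed between the 2 alleles was tested in a fit of all 12 libraries together. The baselines were unlike, the labelled knockout for D29H and wild type for R554Q. The test therefore cannot compare the effects of the 2 mutations alone. No collagen differed among 35 tested, where 0.027% of 14794 genes were called. Under edgeR 2 collagens had an unadjusted p under 0.05, and DESeq2 called 0. The collagens with an unadjusted p under 0.05 were Col2a1 (-0.49, SE 0.18, edgeR adjusted p = 0.331) and Col18a1 (-0.35, SE 0.15, adjusted p = 0.402). A negative value is a lower log2 fold change for D29H than for R554Q, each against its own empty-virus group. For Col8a1 the difference was -0.14 (SE 0.17) and for Col7a1 0.21 (SE 0.24). A rise called for one allele and not for the other was therefore not shown to differ between them.

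The cultures of the 2 alleles differed in more collagens than either Cre comparison. Of 35 tested, 14 were higher and 7 lower in the Nrf2-allele cultures, where 36.0% of all genes were called, 17.9% higher and 18.1% lower. Allele, culture, embryo and table varied together, so their shares cannot be told apart. The labels do not give the number of cultures per allele, so the cultures of an allele here are all its libraries. By class, 9 of 11 fibrillar collagens were higher and 0 lower, and 4 of 5 type IV chains were lower and 0 higher. With Col15a1 and Col18a1 counted beside the type IV chains, 5 of 7 were lower and 0 higher. The cultures did not overlap, by library, for 6 collagens that were higher and 3 that were lower, against 6.44% and 6.85% of all genes. The medians were 0.41 for fibrillar and -0.35 for type IV collagens, beside 0.00 for all genes.

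Col3a1 had 941, 838 and 963 CPM in D29H, 981, 1040 and 1120 CPM in the labelled knockout, then 481, 465 and 491 CPM in R554Q and 497, 520 and 544 CPM in wild type. The libraries of the 2 alleles were far apart, whichever virus they received. On the log2 scale the difference was 0.97 (SE 0.07, edgeR, adjusted p = 1.0e-10). Col2a1 had 21.1 to 34.0 CPM in the Nrf2-allele libraries and 14.5 to 19.4 CPM in the Keap1-allele libraries, a log2 fold change of 0.69 (SE 0.09, edgeR, adjusted p = 2.2e-06).

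The other fibrillar collagens that were higher were Col5a3 (0.68), Col27a1 (0.67), Col1a2 (0.51), Col5a2 (0.41), Col1a1 (0.38), Col5a1 (0.31) and Col11a1 (0.30), with edgeR adjusted p from 2.8e-06 to 0.00553. Col1a1, Col1a2 and Col5a2 did not overlap between cultures, and the other 4 did. Col11a2 had 0.37 (SE 0.16, adjusted p = 0.0726) and Col24a1 had 0.06 (SE 0.18, adjusted p = 0.832), neither past the threshold.

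**Figure D4:**
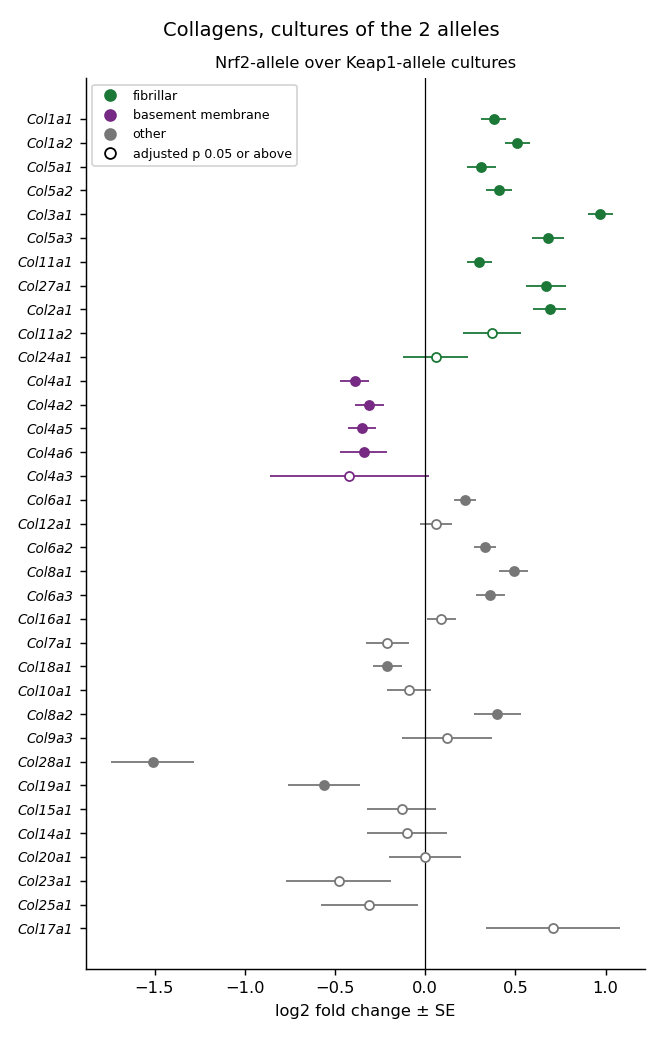
Log2 fold change with its standard error, mean of both Nrf2-allele groups over mean of both Keap1-allele groups, for the 35 collagens tested; filled points passed an adjusted p of 0.05. Fibrillar collagens (green) lie right of 0, from 0.06 to 0.97, and type IV chains (purple) left of 0, from -0.42 to -0.31.

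Col4a1 and Col4a2 form the type IV molecule found in nearly all basement membranes. Col4a1 had 607 to 839 CPM in the Nrf2-allele libraries and 846 to 1040 CPM in the Keap1-allele libraries, a log2 fold change of -0.39 (SE 0.08, edgeR, adjusted p = 4.2e-04) without overlap. Col4a2 had -0.31 (SE 0.08, adjusted p = 0.00267) and Col4a5, a chain of kidney and lens membranes, -0.35 (SE 0.08, adjusted p = 9.4e-04). Col4a6 was called at -0.34 (SE 0.13, adjusted p = 0.0418) but lost in 8 of 12 fits that left out a library: D29H 1 or 2, labelled knockout 1 or 2, R554Q 1 or 2, and wild type 1 or 3 (edgeR, -0.26 to -0.36). The Col4a6 call was also lost with DESeq2 (adjusted p = 0.0528), with upper-quartile scaling (edgeR, adjusted p = 0.0571) and with a mean count of at least 50 (edgeR, adjusted p = 0.0547), at -0.33, -0.31 and -0.32. Col4a3 had -0.42 (SE 0.44, adjusted p = 0.494) on 2 to 12 reads per library.

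Among the other collagens 5 of 19 were higher and 3 lower in the Nrf2-allele cultures, where 17.9% and 18.1% of all genes were. All 3 main type VI chains, which form beaded filaments around cells, were higher: Col6a3 by 0.36, Col6a2 by 0.33 and Col6a1 by 0.22 (edgeR, adjusted p from 3.0e-04 to 0.00643). So were both type VIII chains, Col8a1 at 0.49 (SE 0.08, adjusted p = 9.2e-05) and Col8a2 at 0.40 (SE 0.13, adjusted p = 0.0186). Col8a2 was lost without labelled-knockout replicate 3 (0.33, edgeR, adjusted p = 0.0534).

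Col28a1, known from nerve tissue, had the largest difference of the 35 collagens tested, at -1.51 (SE 0.23, edgeR, adjusted p = 2.0e-05). It had 0.407 to 1.3 CPM in the Nrf2-allele libraries and 1.94 to 2.51 CPM in the Keap1-allele libraries, 9 to 50 reads each. The summed level of 3 Schwann cell markers moved the same way, 2.22 to 4.11 CPM against 5.39 to 6.28 CPM. Of these markers, 1 of 2 tested was lower in the Nrf2-allele cultures, where 18.1% of all genes were. Their part in the result was not tested.

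Col19a1, a rare fibril-associated type, had -0.56 (SE 0.20, adjusted p = 0.0300) and Col18a1 -0.21 (SE 0.08, adjusted p = 0.0344). Col19a1 was lost in 7 of 12 fits that left out a library: D29H 1 or 3, labelled knockout 1 or 2, R554Q 1, and wild type 2 or 3 (edgeR, -0.43 to -0.54). Col18a1 was lost in 6 of 12: D29H 2, labelled knockout 1, R554Q 1 or 3, and wild type 1 or 3 (edgeR, -0.14 to -0.21). It was also lost with a mean count of at least 50 (-0.19, edgeR, adjusted p = 0.0512).

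**Figure D5:**
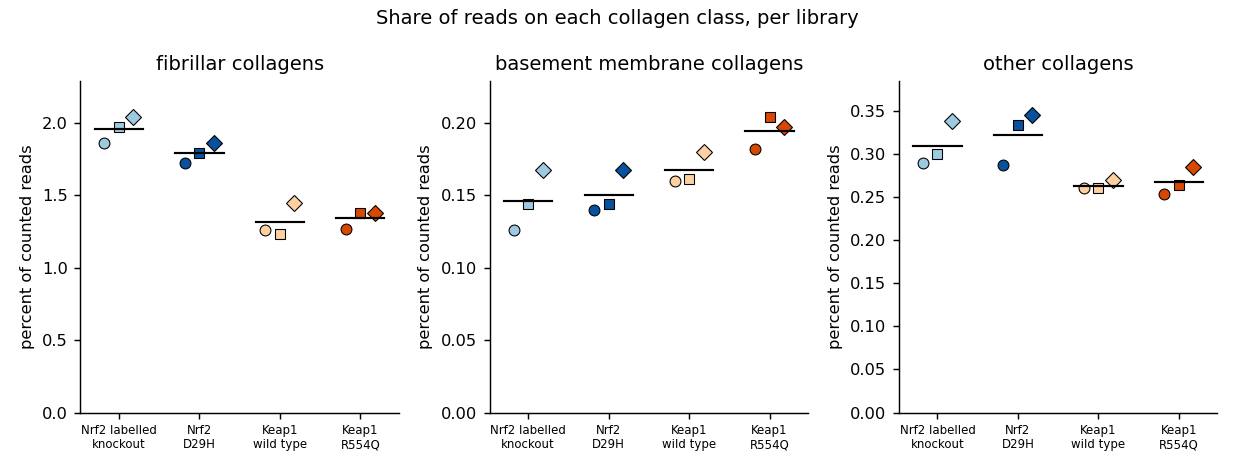
Percent of counted reads on fibrillar, basement membrane and other collagens in each library (points; circle, square and diamond for replicates 1, 2 and 3; bars are group means). Fibrillar collagens take 1.72% to 2.04% in the 6 Nrf2-allele libraries and 1.23% to 1.45% in the 6 Keap1-allele libraries.

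Fibrillar collagens took 1.72% to 2.04% of reads in the Nrf2-allele libraries and 1.23% to 1.45% in the Keap1-allele libraries. The cultures did not overlap in this share. Type IV chains took 0.126% to 0.167% and 0.160% to 0.204% of reads, which did overlap. As a part of summed collagen FPKM, type IV chains made up 5.18% to 6.71% and 8.99% to 10.6%, without overlap. Markers of other cells also differed between cultures, where 36.0% of all genes were called, 17.9% higher and 18.1% lower. All 7 macrophage markers were higher in the Nrf2-allele cultures (summed 123 to 165 against 67.7 to 106 CPM), and all 4 smooth muscle markers were lower (8930 to 11300 against 13000 to 17000 CPM). Of 6 chondrocyte markers, 4 were higher and 1 lower (45.4 to 54.4 against 32.7 to 41.0 CPM). Skeletal muscle markers summed to 89.1 to 125 against 276 to 351 CPM, nearly all from Acta1, with Myog at or below 0.0916 CPM. Of 3 tendon markers 2 were higher (58.6 to 87.0 against 49.1 to 62.4 CPM), and both tested epithelial markers were lower (2.2 to 4.32 against 5.35 to 7.96 CPM). None of the 3 endothelial and 2 osteoblast markers tested was called. Of 8 fibroblast markers, 2 were higher and 3 lower. Their part in the collagen differences was not tested.

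Genes that fold, trim, cross-link, bind and induce collagens came from 5 lists chosen with earlier results of these data known. Of 22 genes for folding and modification in the endoplasmic reticulum, 2 were lower in D29H and 0 higher by edgeR, where 1.28% of all genes tested were lower and 3.47% higher. DESeq2 called 6 of the list in either direction, against 5.34% of all genes. P4ha1, a prolyl hydroxylase subunit, went from 183 ± 28.2 to 122 ± 9.86 CPM (log2 fold change -0.58, SE 0.11, edgeR, adjusted p = 0.00577). Crtap, a cofactor of prolyl 3-hydroxylation, had -0.38 (SE 0.11, adjusted p = 0.0466). The median over the list was -0.20, and it was -0.12 in the Keap1 comparison, where edgeR called 0, with 7 at an unadjusted p under 0.05 and 2 called by DESeq2, which called 7.89% of all genes there.

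Of 13 genes for cleavage and cross-linking, Bmp1, the procollagen C-proteinase, was higher in D29H (0.42, SE 0.12, edgeR, adjusted p = 0.0372). Loxl4, a lysyl oxidase, was lower (-0.42, SE 0.10, adjusted p = 0.0202). DESeq2 called 5 of the list there, against 5.34% of all genes and 4.75% by edgeR. In the Keap1 comparison Loxl2, another lysyl oxidase, was the 1 gene called by edgeR, at -0.32 (SE 0.09, adjusted p = 0.0444), where 2.4% of all genes were lower, and DESeq2 called 3, against 7.89% of all genes. Of the receptors, 1 of 8 was lower in R554Q, the collagen-binding integrin chain Itga11 (-0.29, SE 0.08, adjusted p = 0.0319), and DESeq2 called 2. In the Nrf2 comparison 0 of 9 were called by edgeR, with 2 at an unadjusted p under 0.05 and 1 called by DESeq2.

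Of 13 genes of the TGF-beta pathway, which induces fibrillar collagens, 1 was higher and 1 lower in R554Q by edgeR, where 3.77% and 2.4% of all genes were, and DESeq2 called 5, against 7.89%. Smad3, its signal transducer, had 0.26 (SE 0.08, edgeR, adjusted p = 0.0467), and Ctgf, a target, fell from 859 ± 13.4 to 658 ± 19.9 CPM (-0.38, SE 0.08, adjusted p = 0.00916). In D29H edgeR called 0, with 2 at an unadjusted p under 0.05 and 1 called by DESeq2. Of 11 basement membrane partners of type IV collagen, 3 were higher in R554Q, where 3.77% of all genes were: Nid1 (0.46), which links laminin to type IV collagen, Lama5 (0.40), a laminin chain, and Agrn (0.39), a heparan sulphate proteoglycan. Their adjusted p ran from 0.00470 to 0.0244 in edgeR. Agrn was also the 1 partner called in D29H by edgeR, at 0.45 (SE 0.10, adjusted p = 0.0135), where DESeq2 called 2 and 3.47% of all genes were higher by edgeR. In the Nrf2-allele cultures, 1 TGF-beta gene was higher and 5 lower, and 4 partners were higher and 2 lower. Folding genes numbered 2 higher and 6 lower, cleavage and cross-linking genes 3 and 3, and receptors 1 and 1. Of all genes, 17.9% were higher and 18.1% lower between the cultures (edgeR).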

How the data were processed

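RNA of mouse embryonic fibroblasts was sequenced in 12 libraries, 3 in each of 4 groups taken from the sample titles. Per the file headers, the deposited tables hold each library's unnormalised count for every gene. They also hold the authors' FPKM, which matched count, listed gene length and column total to within 5.0e-10%. The authors' group means (a normalised signal), log2 fold changes and p-values stand beside them in the deposited tables and were not tested further. STAR, DESeq2 and mm10 are named in the submitters' processing notes; versions, counting tool and use of strand are not given in the sources used here. In the authors' deposited tables, 3 collagens were higher and 1 lower in D29H and 2 higher and 1 lower in R554Q at an adjusted p under 0.05. There was no adjusted p for 16 and 21 collagens. The authors' share over all genes is not given here.

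Counts were tested in R 4.3.3 with edgeR 4.0.16 (filterByExpr, TMM, glmQLFit and glmQLFTest, Benjamini-Hochberg over all genes tested, threshold 0.05). Each Cre comparison used its own 6 libraries, and the difference of the alleles and the comparison of the cultures used all 12. CPM were scaled over 12 libraries. Some of the fits were also run on simulated counts, with the same dispersion for all genes and no trend with GC content or length. That run cannot show how the offsets act on such trends, or how calls move when a library is left out. Alternatives were upper-quartile or RLE scaling, no filter, a minimum mean count of 50, DESeq2 1.42.0 and limma 3.58.1 with trend, all libraries in one fit, offsets for GC content and length (lowess span 0.3), a replicate block and leaving out each library.

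Members and lists were chosen with earlier results of these data known. Collagens named are those called in any test, the 3 with the highest FPKM of each class, the largest change of each class in each Cre comparison, and those below the filter. List genes named are those called in a Cre comparison. Others were named after their values were seen. Positions follow the deposited tables, and all 44 members lay at overlapping positions in GENCODE M21 (GRCm38). Counts were compared with 10 cell type marker lists.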

Additional observations from a re-analysis of the deposited data

How the results depend on the processing

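Counts of called collagens that moved by over 1.5 times were these. The share of all genes called under each of these settings is not given here, so the moves cannot be read as particular to collagens. Lower in D29H numbered 3 with no filter on low counts, 2 with the GC and length offsets and 2 with the replicate block, against 1. Higher in R554Q numbered 5 with no filter, 0 with the offsets and 1 with all 12 libraries in one fit, against 2, and lower in R554Q numbered 2 with the offsets, against 1. Lower in the Nrf2-allele cultures numbered 3 with a mean count of at least 50, against 7: Col28a1 and Col19a1 were below that minimum and not tested, and Col4a6 and Col18a1 had adjusted p of 0.0547 and 0.0512 (edgeR). With each library left out in turn, the range in D29H was 0 to 8 higher and 0 to 3 lower, in R554Q 0 to 6 higher and 0 to 3 lower, and between the cultures 14 to 16 higher and 4 to 7 lower. The 4 lower came without labelled-knockout replicate 1, R554Q replicate 1 or wild-type replicate 3. With 1 library left out, 0.563% to 15.0% of all genes were called in the Nrf2 comparison and 1.66% to 20.0% in the Keap1 comparison. The difference of the alleles stayed at 0 called in every alternative run. Col5a3 in R554Q was 0.41 (edgeR, adjusted p = 0.0650) with all 12 libraries in one fit. The replicate numbers share only a number: same-numbered deviations correlated at -0.103 to -0.028 in the Nrf2 table and -0.215 to 0.040 in the Keap1 table. With the replicate block, 3 collagens were higher and 2 lower in D29H (Col2a1 added, adjusted p = 0.0491), and 2 higher and 1 lower in R554Q. The cause of the other shifts was not tested. All 35 tested collagens are longer than the median gene tested and 27 have a higher GC content. Collagens with few reads, such as Col20a1 and Col28a1, allow only wide errors.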
